A study of Mus musculus with 9 samples.

Results

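The transcripts described here are rows of the P21 mouse retina table that carry only a placeholder name (Gm plus a number, or a clone name ending in Rik) and that stood higher in every Tet tcKO library than in every other library. Members were chosen by their level in all 9 libraries. Every Tet tcKO library had to reach 0.5 CPM (reads of a gene scaled to a common library total), and the lowest of them had to be at least 1.5 times the highest of the 6 Cre- and tHet libraries. This rule held for 93 of 30623 placeholder-named rows, out of 55487 rows in all. Of these, 72 were Gm names and 21 were Rik names. Rows with an ordinary gene name met the same level and fold conditions 261 times among the 13750 that reached 0.5 CPM in every Tet tcKO library (1.9%), beside 93 of 3935 placeholder-named rows (2.36%). The list depended most on Tet tcKO replicate 3, because 164 transcripts met the rule without that library.

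The libraries are bulk RNA-seq of whole P21 retina from mice labelled C57 BL/6J. Cre- animals are the wild-type controls and came from Cre-negative breeders. tHet animals carry Chx10::Cre-GFP and 1 floxed (loxp) allele of each of Tet1, Tet2 and Tet3, and Tet tcKO animals carry the same transgene with both alleles of all 3 genes floxed. Each genotype had 3 libraries, each made from the retinas of 2 animals. Cre-positive animals of both Cre genotypes were in-crossed to hold 2 copies of the transgene, so a difference from Cre- cannot be told apart from a difference between breeding lines. Chx10 drives Cre in retinal progenitors, and the transgene is known to be mosaic, so recombination need not reach every cell.

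TET enzymes oxidise 5-methylcytosine to 5-hydroxymethylcytosine, an early step of active DNA demethylation, mostly at CpG dinucleotides. Placeholder-named loci are mainly long noncoding RNAs, transcripts antisense to coding genes, pseudogenes and annotated fragments with no assigned function. Long noncoding RNAs are known for low, cell-type-restricted expression, and many are transcribed from the same control regions as a neighbouring coding gene. Their position in the genome is therefore given with their levels.

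Reads counted on genes ranged from 14813873 to 16987479 in Cre-, from 9627927 to 21108256 in tHet and from 15176156 to 16840792 in Tet tcKO libraries. A level of 3 reads, used here as the floor of detection for counting error only, corresponded to at most 0.312 CPM. The ribosomal RNA row CT010467.1 took 28.7% of reads in Tet tcKO replicate 3, 3.72% in tHet replicate 3 and at most 0.23% elsewhere, which lowers the CPM of all other rows in those libraries. Tet3 fell short of a call, with a log2 fold change (log2FC) of -0.99 against Cre- (limma adjusted p = 0.0174), and Tet1 and Tet2 had log2FC of 0.22 and 0.25. These gene-level values include exons outside the deleted parts. Several marker lists differed in Tet tcKO. The 6 rod markers used summed to 2510 to 5580 CPM in Tet tcKO, beside 14500 to 16600 in Cre- and 13300 to 15700 in tHet, and 5 of the 6 were called lower against both controls. The 7 cone markers summed to 1060 to 1580 CPM in Tet tcKO, beside 435 to 554 in Cre- and 519 to 566 in tHet, with 5 called higher against both controls. The 4 ciliary body markers summed to 246 to 310 CPM in Tet tcKO, beside 36.8 to 61.0 in Cre- and 156 to 232 in tHet, with 3 called higher against Cre- and 0 against tHet. The 5 pigment epithelium markers summed to 19.3 to 26.8 CPM in Tet tcKO, beside 28.1 to 124 in Cre- and 86.5 to 114 in tHet, with 1 called lower against Cre- and 3 against tHet. The part of these lists in the results on the unnamed transcripts was not tested. In bulk retina, fewer cells of a type and less RNA per cell cannot be told apart.

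The DNA at the start is shown for transcripts among the 10 largest ratios of lowest Tet tcKO to highest other library. The promoter window (250 bases before to 50 after the RefSeq start, GRCm38.p6) is printed for those with an entry in the RefSeq table used here. The most CpG-rich window of the set, that of Gm10419, is added. Gm11546 was at 0 in every control library, so it has no finite ratio and was placed with the largest. Its levels in Tet tcKO were 0.653, 0.857 and 0.662 CPM, with a log2 fold change of 1.29 against Cre-, so its difference was not among the largest. Capitals mark CpG dinucleotides, the usual substrate site of TET enzymes. The windows lie at chr11:94798162-94798461 (Gm11546), chr3:8736590-8736889 (C230057A21Rik), chr7:142857156-142857455 (Gm39117), chr10:69033839-69034138 (Gm33035) and chr17:83960888-83961187 (Gm41638), all on the minus strand, and at chr5:108367687-108367986 on the plus strand (Gm10419).
Gm11546: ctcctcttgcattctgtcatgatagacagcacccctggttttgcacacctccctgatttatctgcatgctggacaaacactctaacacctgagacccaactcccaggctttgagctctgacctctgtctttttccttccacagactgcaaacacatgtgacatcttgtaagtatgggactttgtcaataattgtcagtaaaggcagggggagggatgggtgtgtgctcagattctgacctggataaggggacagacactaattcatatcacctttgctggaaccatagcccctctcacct
C230057A21Rik: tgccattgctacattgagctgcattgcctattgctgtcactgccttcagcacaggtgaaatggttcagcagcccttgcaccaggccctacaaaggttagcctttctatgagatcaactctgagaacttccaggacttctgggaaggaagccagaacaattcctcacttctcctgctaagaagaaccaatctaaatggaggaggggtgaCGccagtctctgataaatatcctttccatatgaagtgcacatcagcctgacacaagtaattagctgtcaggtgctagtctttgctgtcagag
Gm39117: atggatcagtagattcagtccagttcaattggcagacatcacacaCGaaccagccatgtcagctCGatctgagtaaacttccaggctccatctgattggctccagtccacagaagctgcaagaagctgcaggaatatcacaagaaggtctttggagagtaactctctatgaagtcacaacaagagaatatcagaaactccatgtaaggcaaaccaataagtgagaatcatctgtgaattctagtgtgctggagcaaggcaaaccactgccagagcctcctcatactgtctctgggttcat
Gm33035: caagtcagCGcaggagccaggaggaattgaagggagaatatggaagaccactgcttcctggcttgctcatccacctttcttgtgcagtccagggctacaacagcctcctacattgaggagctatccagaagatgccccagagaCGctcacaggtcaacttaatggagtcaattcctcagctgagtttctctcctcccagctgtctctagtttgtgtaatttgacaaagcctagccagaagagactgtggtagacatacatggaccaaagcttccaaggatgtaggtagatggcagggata
Gm41638: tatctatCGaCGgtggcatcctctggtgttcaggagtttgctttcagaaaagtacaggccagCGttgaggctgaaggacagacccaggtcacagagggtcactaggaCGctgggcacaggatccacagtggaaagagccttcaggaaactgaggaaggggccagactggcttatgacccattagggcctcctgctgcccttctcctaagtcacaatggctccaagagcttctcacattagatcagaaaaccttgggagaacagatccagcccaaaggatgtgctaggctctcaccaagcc
Gm10419: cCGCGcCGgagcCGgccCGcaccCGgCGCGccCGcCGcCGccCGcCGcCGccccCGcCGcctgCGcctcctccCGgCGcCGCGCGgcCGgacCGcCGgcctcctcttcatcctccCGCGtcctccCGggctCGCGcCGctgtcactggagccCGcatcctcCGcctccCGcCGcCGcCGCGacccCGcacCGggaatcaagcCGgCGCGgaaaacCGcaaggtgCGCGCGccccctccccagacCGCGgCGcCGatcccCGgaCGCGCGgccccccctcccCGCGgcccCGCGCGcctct

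The windows of the 5 high-ratio transcripts held 0 to 4 CpG dinucleotides and had CpG observed-to-expected ratios of 0.0 (Gm11546), 0.0597 (C230057A21Rik), 0.128 (Gm39117), 0.108 (Gm33035) and 0.188 (Gm41638). The Gm10419 window held 60 CpG and had a GC content of 84.0%. The RefSeq starts of these 6 windows lay between 0 and 434 bases from the GENCODE M21 start of the same transcript. Over the 36 transcripts with a window the median ratio was 0.322, beside 0.415 for 1299 other tested placeholder-named transcripts, 0.741 for 11531 tested named genes and 0.384 for all 32851 windows. A ratio of at least 0.6 was found in 13 of the 36 (36.1%), beside 37.8% of the other placeholder-named transcripts. Of the 36 RefSeq starts, 10 lay more than 1000 bases from the GENCODE start and 6 more than 10000 bases, up to 77965 bases for Gm12295, so these windows need not be the start of the transcript that was counted.

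Letters of common motifs were searched on both strands of the same windows. The OTX and CRX core TAATCC was present in 4 of 36 windows (11.1%, beside 7.06% of all windows), the E-box CANNTG in 27 (75%, beside 72.3%), TATAAA in 6 (16.7%, beside 13.6%) and the SOX core ACAAAG in 9 (25%, beside 18.7%). These are descriptions of 300 bases per transcript and no factor's binding was measured.

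The levels of the 93 transcripts were low in both control genotypes. Their summed level was 172 to 288 CPM in Cre-, 202 to 300 in tHet and 1090 to 1530 in Tet tcKO libraries. Gm45861 and 4930447C04Rik made up much of these sums. Without both, the sums were 72.4 to 111, 93.9 to 130 and 504 to 736 CPM. In Tet tcKO, 56 of the 93 had a mean under 5 CPM and 4 a mean over 50 CPM. In the 6 other libraries, 27 were at 0 in at least 1 library and 2, Gm11546 and Gm23905, were at 0 in all of them.

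**Figure D1:**
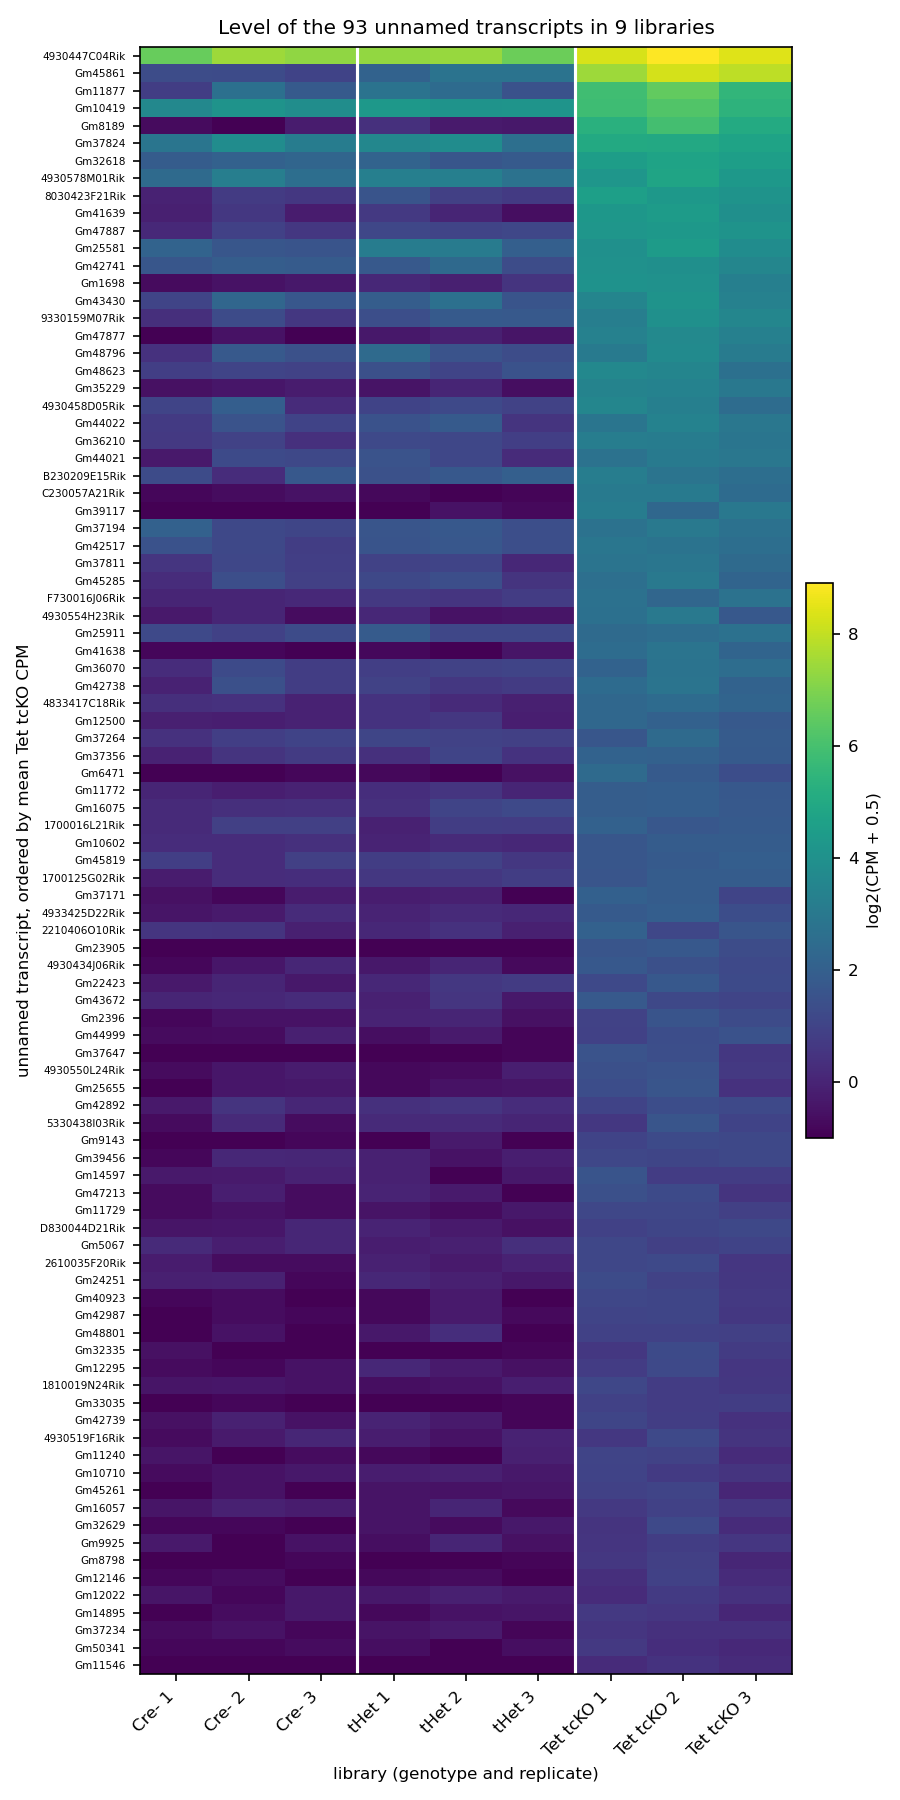
Level of each of the 93 transcripts (rows, ordered by mean Tet tcKO CPM) in the 9 libraries (columns), as log2(CPM + 0.5) by colour. 4930447C04Rik, at the top, was already at 97.4 CPM or more in every control library, whereas most rows were near 0 outside Tet tcKO.

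The median log2FC of the 93 on the log2(CPM + 0.5) scale was 1.72 against Cre- and 1.55 against tHet, beside 0.0 and -0.06 over all 21330 tested genes and -0.03 and -0.28 over the 6270 other tested placeholder-named transcripts. The rule fixed these directions, so they are given without a test. The added 0.5 CPM understates the change of low transcripts. With the transcripts at 0 in every control library placed at their detection bound, the medians were 1.73 and 1.55. At the thresholds used throughout (absolute log2FC of at least 1, limma adjusted p under 0.01), 69 of the 93 were called higher against Cre- and 54 against tHet, where the shares of all tested genes called higher were 2.03% and 1.39%. Nothing is read from these counts, because the same contrasts chose the list, and a transcript passed the filter on low values only through its Tet tcKO level in many cases.

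The transcripts closest to the 1.5-fold threshold show how it cuts. Just inside were B230209E15Rik, with a lowest Tet tcKO value of 5.48 CPM and a highest other value of 3.55 (ratio 1.542), Gm11240 with 0.662 and 0.426 (ratio 1.553) and 4930458D05Rik with 5.24 and 3.37 (ratio 1.553). Just outside were Gm26505 with 24.5 and 16.3 CPM (ratio 1.497), Gm15155 with 0.602 and 0.405 (ratio 1.487) and Gm23935 with 1600 and 1070 (ratio 1.485).

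The largest ratio that rests on more than a few control reads belonged to Gm8189, a transcribed pseudogene at chr19:8473313-8541798 (minus strand). The Tet tcKO libraries held Gm8189 at 39.1, 60.8 and 32.5 CPM, while it was at 0.118, 0 and 0.338 CPM in Cre- and at 0.792, 0.312 and 0.284 CPM in tHet. The lowest Tet tcKO library was thus 41.0 times the highest other library. The difference was 6.08 ± 0.35 (log2FC ± SE) against Cre- and 5.52 ± 0.35 against tHet. The nearest named gene, the organic anion transporter gene Slc22a8, starts 49456 bases away and was not called. Mean Slc22a8 was 1.46 ± 0.683 CPM in Cre- libraries, 2.73 ± 0.482 for tHet and 0.977 ± 0.639 for Tet tcKO (SD, n = 3), with log2FC of -0.47 and -1.23 (limma adjusted p = 0.688 and 0.0665).

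Gm45861, annotated as coding with 68 merged exons at chr8:27447100-27620917 (plus strand), had the largest log2FC of the list against Cre-, 6.70 ± 0.27 (SE). Gm45861 was at 174, 309 and 244 CPM in Tet tcKO, at 1.94, 1.91 and 1.49 in Cre- and at 3.82, 6.34 and 6.25 in tHet. The 3 genotypes did not overlap, and tHet stood between the others. Gm45861 shares exon sequence on the same strand with Poteg, an ankyrin-repeat gene, and 1105 exon bases with another of the 93, Gm1698, so how the counting assigned these reads affects all of them. Poteg was counted at a mean of 0.766 CPM in Tet tcKO and at 0.0196 and 0 CPM in Cre- and tHet. Gm1698, a lincRNA, was at 15.9, 15.7 and 9.15 CPM in Tet tcKO and at most 0.9 CPM in any other library. At the same region, the nicotinic receptor subunit genes Chrnb3 and Chrna6 were not called, with log2FC of -0.27 and -0.48 against Cre- (limma adjusted p = 0.79 and 0.306).

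**Figure D2:**
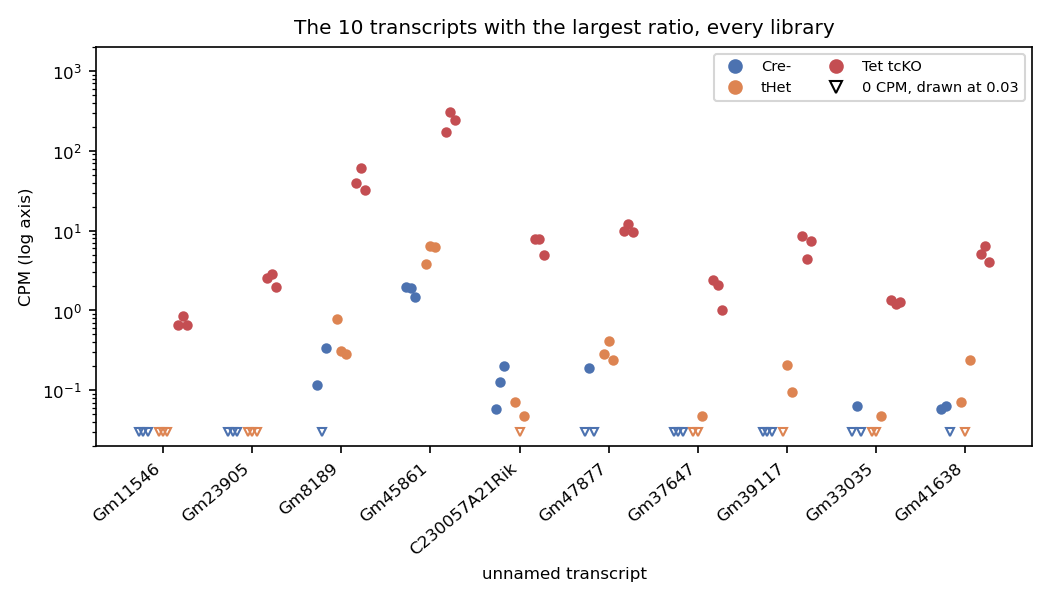
CPM (log axis) in each of the 9 libraries for the 10 transcripts with the largest ratio of lowest Tet tcKO to highest other library. Points are libraries, and open triangles are libraries at 0 CPM, drawn at 0.03. Every Tet tcKO point lies above every other point of its transcript, as the rule requires.

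A cluster of 4 of the 93 lay within 13.3 kb on chromosome 17 (83947588 to 83960930), with no named gene within 50 kb. Gm41639 (minus strand) was at 18.5, 21.2 and 14.8 CPM in Tet tcKO and at 0.142 to 1.08 CPM in the 6 other libraries. Gm35229 (plus strand) was at 10.3, 10.0 and 7.29 CPM in Tet tcKO and at 0.142 to 0.519 CPM elsewhere. Gm41638 (minus strand), whose CpG-poor promoter is printed above, was at 5.11, 6.46 and 4.09 CPM in Tet tcKO and at 0 to 0.237 CPM elsewhere. The fourth, Gm23905, is annotated as a ribosomal RNA fragment of 109 bases. It was at 2.55, 2.83 and 1.99 CPM in Tet tcKO and at 0 in all other libraries, which makes its lowest Tet tcKO library at least 6.38-fold higher than the floor of 3 reads per library. All 4 stood at about 1 CPM or less outside Tet tcKO, on both strands. The only tested neighbours within 100 kb were Haao at log2FC of -0.29 and the lincRNA C430042M11Rik at -1.30 against Cre- (limma adjusted p = 0.834 and 0.0246), and neither was called.

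Of the 93, 30 lay within 100 kb of another of the 93, in 13 clusters. On chromosome 3, C230057A21Rik and Gm37647 lie 14.0 kb end to end with no named gene within 50 kb. C230057A21Rik was at 7.78, 7.91 and 5.0 CPM in Tet tcKO and at 0 to 0.203 CPM in the 6 other libraries. Gm37647 was at 2.43, 2.11 and 1.02 CPM in Tet tcKO, and a single library of the 6 others, tHet replicate 3, held 1 read. Its ratio of CPM over the summed reads (90 against 1) was 171 with a 95% exact interval of 29.8 to 6810. The nearest tested genes, Mrps28 at 55322 bases and the Notch target Hey1 at 65614 bases, were not called, with log2FC of 0.11 and 0.72 against Cre- (limma adjusted p = 0.951 and 0.148).

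On chromosome 7, the lincRNAs Gm39117 and Gm6471 overlap on opposite strands, 35170 and 40486 bases from Th, the tyrosine hydroxylase gene of dopaminergic amacrine cells. Gm39117 was at 8.49, 4.41 and 7.35 CPM in Tet tcKO, at 0 in all Cre- libraries and at 0, 0.208 and 0.0947 CPM in tHet. Gm6471 was at 4.87, 2.97 and 2.05 CPM in Tet tcKO and at 0 to 0.189 CPM elsewhere. Both were near absent from the controls, and they share 196 exon bases on opposite strands, so that without strand in the counting their reads cannot be told apart. Th itself was at 1.73 ± 0.164, 1.67 ± 0.755 and 2.67 ± 1.03 CPM in Cre-, tHet and Tet tcKO (SD, n = 3) and was not called (log2FC of 0.47 and 0.56, limma adjusted p = 0.639 and 0.462).

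A pair on chromosome 9 lay at the genes of neuronal nicotinic acetylcholine receptor subunits. Gm47877, antisense to Chrnb4, was at 9.8, 12.1 and 9.57 CPM in Tet tcKO, at 0, 0.191 and 0 CPM in Cre- and at 0.288, 0.415 and 0.237 CPM in tHet. Gm47887, a lincRNA 16148 bases upstream of Chrnb4 on the same strand, was at 18.1, 19.0 and 16.6 CPM in Tet tcKO, at 0.589 to 1.40 CPM in Cre- and at 1.56 to 1.66 CPM in tHet. In both, the tHet libraries lay above the Cre- libraries and far below Tet tcKO. Neither was called between tHet and Cre- (limma unadjusted p = 0.103 for Gm47877 and 0.101 for Gm47887). Gm47877 was within a few reads of the floor of detection in both control genotypes. The coding gene rose with the pair in Tet tcKO. Chrnb4 went from 1.63 ± 0.36 CPM in Cre- and 2.89 ± 0.753 in tHet to 71.6 ± 26.8 in Tet tcKO (SD, n = 3), a log2FC of 5.03 ± 0.31 against Cre- and 4.37 ± 0.31 against tHet (SE; limma adjusted p = 2.3e-09 and 2.6e-08). The next genes of the receptor cluster, Chrna3 and Chrna5, were also called higher, with log2FC of 1.76 and 1.74 against Cre- (limma adjusted p = 0.00025 and 0.0008).

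Clusters of 3 lay at C1ql3 on chromosome 2 and at Prmt8 on chromosome 6. C1ql3 encodes a secreted synaptic protein, and Gm37824 and Gm37811 lie opposite it while Gm37356 starts 818 bases away and points apart. Gm37824 was at 32.2, 30.8 and 26.3 CPM in Tet tcKO and at 5.68 to 13.8 CPM elsewhere, Gm37811 at 6.53, 6.85 and 4.94 CPM and at 0.568 to 1.65 CPM elsewhere, and Gm37356 at 3.86, 3.69 and 3.01 CPM and at 0.471 to 1.56 CPM elsewhere. C1ql3 had log2FC of 1.53 and 1.91 against Cre- and tHet (limma adjusted p = 0.004 and 0.00065). The first call was lost without Cre- replicate 3 or Tet tcKO replicates 1, 2 or 3 (adjusted p of 0.0291, 0.0442, 0.0127 and 0.0189), and the second without Tet tcKO replicate 1 (0.0116). Another neighbour, Pter, ends 910 bases upstream of Gm37824 on the same strand. Pter was also called higher, with log2FC of 1.48 and 1.82 against Cre- and tHet (limma adjusted p = 0.00055 and 8.2e-05). Prmt8 encodes a brain-enriched arginine methyltransferase. Its 3 transcripts were Gm42741, at 15.7, 14.8 and 11.3 CPM in Tet tcKO and 1.94 to 4.67 CPM elsewhere, Gm42738, at 4.99, 6.52 and 3.85 CPM and 0.471 to 2.16 CPM elsewhere, and Gm42739, at 0.843 to 1.6 CPM and 0.0474 to 0.504 CPM elsewhere. Prmt8 had log2FC of 1.33 and 1.31 (limma adjusted p = 0.00045 and 0.0006). Both partners share exon bases with a transcript of their cluster on the opposite strand.

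**Figure D3:**
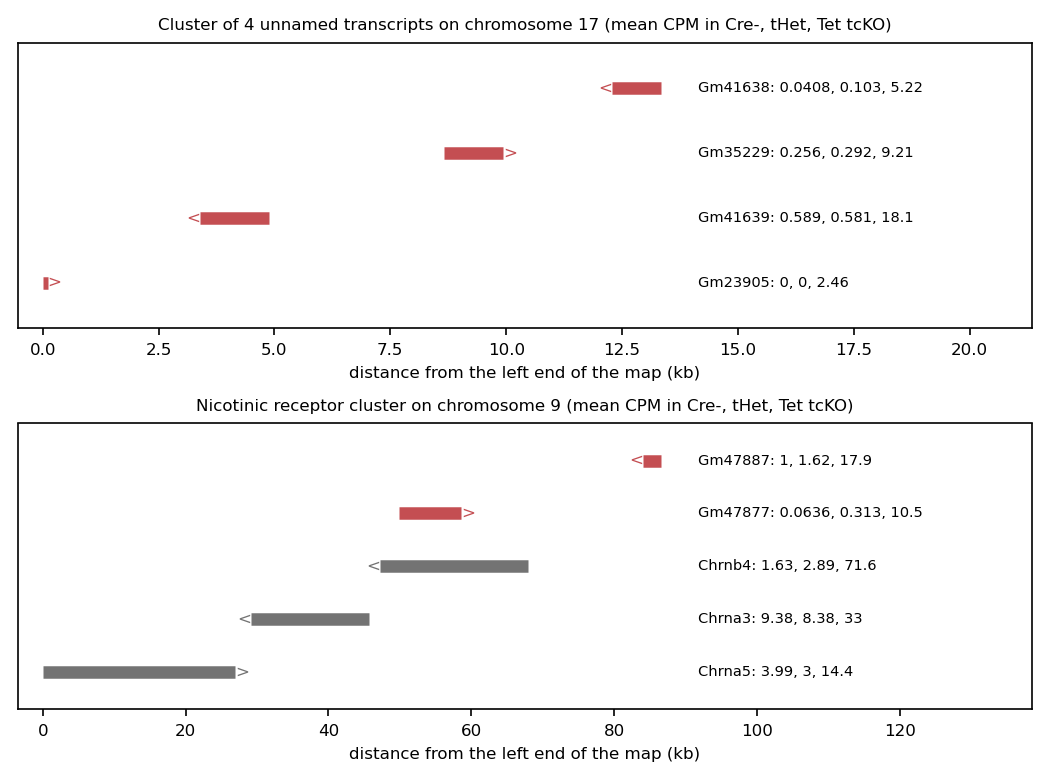
Maps of the chromosome 17 cluster and of the nicotinic receptor cluster on chromosome 9, drawn to scale in kb from the left end of each map. Red bars are transcripts of the list, grey bars coding genes, arrowheads give the strand, and the numbers are mean CPM in Cre-, tHet and Tet tcKO (n = 3 each). Gm41639 goes from 0.589 and 0.581 to 18.1 CPM, and Chrnb4 from 1.63 and 2.89 to 71.6 CPM.

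The rule did not use the level of the named gene at each locus. Where a transcript overlaps its named gene, however, the same reads may count for both, so such pairs are not an independent comparison. A partner was set by position alone, in a fixed order: a named gene with shared exon bases on the same strand, then a host gene on the same strand, a gene overlapping on the opposite strand, a gene with a divergent start within 2 kb, a gene ending within 10 kb upstream on the same strand, and otherwise the nearest within 50 kb. Of the 93, 71 had a partner and 22 had none. The 71 shared 61 partners, of which 55 were tested, and Poteg and Gpat3, which share exon sequence with a transcript of the list on the same strand, were kept out of the counts. Of the remaining 53 partners, 25 were called higher in Tet tcKO than in Cre- (47.2%), where 2.03% of all tested genes were, and 2 were called lower (3.77%, beside 1.57%). Against tHet, 23 were called higher (43.4%, beside 1.39%) and 2 lower (3.77%, beside 1.61%). Partners of the other tested placeholder-named transcripts were called higher in 49 of 3365 cases against Cre- (1.46%) and 35 against tHet (1.04%). The median log2FC of the 53 was 0.94 against Cre- and 0.97 against tHet. The Tet tcKO libraries are shared by both comparisons. The partners B4galnt2 and Tex26, called higher in both, passed the filter on low values only through their Tet tcKO level.

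In 13 of the 53, an exon of the partner overlaps an exon of the unnamed transcript on the opposite strand. All 13 were called higher against Cre-, so they make up a large part of the 47.2% given above. The library kit keeps strand, but the strand setting of the counting is not given in the sources used here, so the reads of these pairs cannot be told apart. Among the 40 other partners, 12 were called higher against Cre- (30.0%) and 11 against tHet (27.5%), with median log2FC of 0.68 and 0.62. For transcripts inside an intron of a named gene, reads of unspliced host RNA fall on the same bases in a total RNA library and cannot be told apart either. The 40 still include the 8 hosts of such transcripts, of which 6 were called higher against Cre-. No share without both kinds of pair was computed. Outside both kinds, the partners called higher against Cre- were Chrnb4, Myocd, B4galnt2, Rasef, Zic2 and Rtl8c. Of these, Chrnb4 and Rtl8c overlap a transcript of the list on the opposite strand without shared exon bases. Zic2 was not called against tHet (limma adjusted p = 0.0187).

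By position, 6 of 8 hosts of intronic transcripts, 15 of 21 partners on the opposite strand, 3 of 8 divergent partners and 5 of 19 tested other neighbours within 50 kb were called higher against Cre-. In these counts, 4 partners stand under more than 1 position. Chrnb4, Jam3 and Prmt8 count both on the opposite strand and as neighbours, and C1ql3 both on the opposite strand and as divergent. All 4 were called higher, so calls in the positions without overlap partly repeat those of overlapping pairs. The single partner upstream of a transcript on the same strand was Cpne3, for Gm25655, and it was not called (log2FC of 0.82, limma adjusted p = 0.0494). Cngb3, which was called higher against both controls, lies nearer to Gm25655, at 3867 bases beside 4475, but on the other strand. The difference between positions was not tested.

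**Figure D4:**
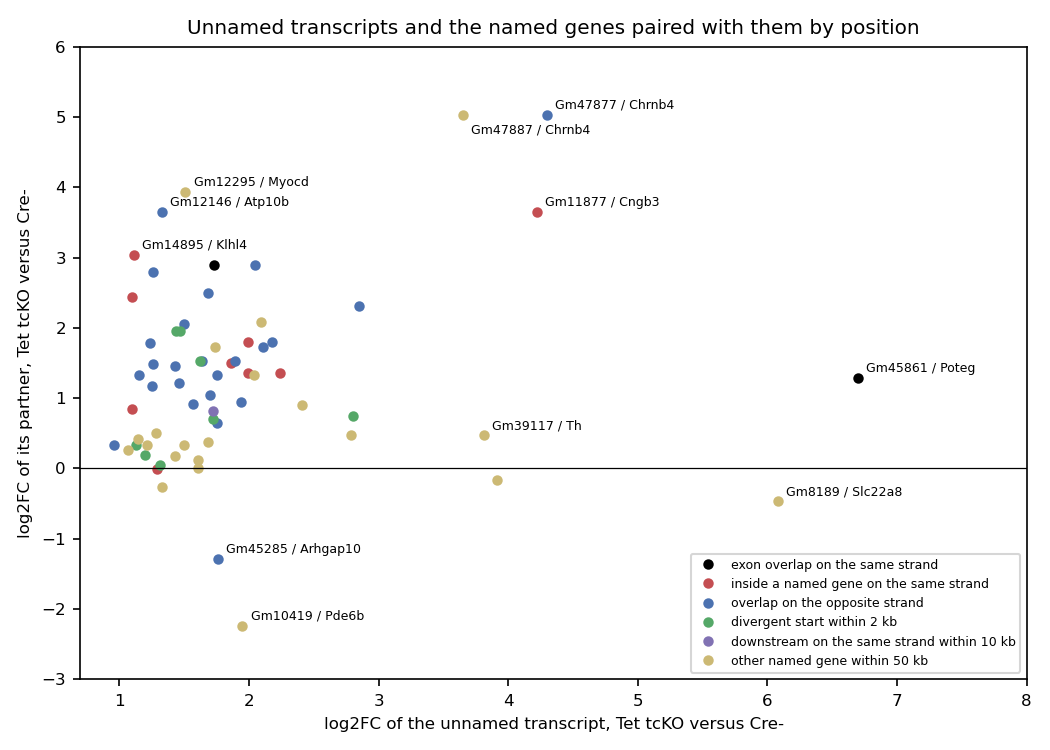
Log2FC of each unnamed transcript (x axis) and of its partner (y axis), Tet tcKO versus Cre-, coloured by position class. Each point is a transcript with a tested partner. Most points lie above 0 on the y axis, and Gm45285 with Arhgap10 and Gm10419 with Pde6b lie lowest. The rule fixed the x values to be above 0.

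Among intronic transcripts, Gm11877 had the largest change. It is a processed pseudogene of 852 bases at chr4:19298333-19299184, inside Cngb3, which encodes a subunit of the cone cyclic-nucleotide-gated channel, and it holds 641 bases of sequence shared with Set. Gm11877 was at 57.5, 92.4 and 45.9 CPM in Tet tcKO, at 1.24, 5.73 and 3.04 CPM in Cre- and at 6.41, 5.09 and 2.32 CPM in tHet. Cngb3 was called higher too, from 70.9 ± 9.07 CPM in Cre- and 85.2 ± 13.6 in tHet to 910 ± 222 in Tet tcKO (SD, n = 3; log2FC of 3.65 and 3.39, limma adjusted p = 2.3e-09 and 1e-08). The 7 cone markers given above moved the same way, and their part in this result was not tested. Gm14895, a processed pseudogene inside the kelch-family gene Klhl4 on chromosome X, was at 1.07, 0.988 and 0.542 CPM in Tet tcKO and at 0 to 0.27 CPM elsewhere. Klhl4 itself had log2FC of 3.04 and 3.10 (limma adjusted p = 2.9e-07 and 3.2e-07). Gm37234 inside Prtg, the gene of the cell-surface protein protogenin, was at 0.783 to 0.95 CPM in Tet tcKO and at 0.0474 to 0.312 CPM elsewhere. Prtg had log2FC of 2.44 and 1.94 (limma adjusted p = 8.9e-06 and 0.00015).

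The opposite-strand group held the transcript with the highest CPM of the list, though not the highest per kb. 4930447C04Rik, at chr12:72881109-72940774 (minus strand), overlaps Six6, a homeobox gene of the developing eye. It was at 319, 480 and 339 CPM in Tet tcKO, at 97.4, 175 and 154 CPM in Cre- and at 158, 164 and 102 CPM in tHet. This was a gain from an already high level, of 1.43 ± 0.26 (log2FC ± SE) against each control. Six6 rose with it, from 122 ± 22.3 and 119 ± 35.0 to 340 ± 80.6 CPM (SD, n = 3; log2FC of 1.46 and 1.52, limma adjusted p = 0.00066 and 0.00051). The exons of the 2 genes overlap.

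Other opposite-strand partners with large changes were Atp10b, Dchs2, Epha10, Trim43c, Inppl1 and Ampd2, and each shares exon bases with its transcript. Gm12146 opposite Atp10b, a phospholipid flippase gene, was at 0.772, 1.38 and 0.662 CPM in Tet tcKO and at 0 to 0.127 CPM elsewhere, and Atp10b had log2FC of 3.65 and 2.87 (limma adjusted p = 1.2e-06 and 3.7e-05). Gm10710 opposite Dchs2, a large cadherin gene, was at 1.48, 1.12 and 0.903 CPM in Tet tcKO and at 0.118 to 0.415 CPM elsewhere. Dchs2 had log2FC of 2.79 and 2.62 (limma adjusted p = 0.00029 and 0.00062), and without Tet tcKO replicate 1 the latter adjusted p was 0.0114. Here, too, the control levels were within a few reads of the floor.

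1700125G02Rik lies opposite Epha10, which encodes an ephrin receptor. It was at 2.55, 3.23 and 3.19 CPM in Tet tcKO, at 0.353 to 0.743 CPM in Cre- and at 1.01 to 1.23 CPM in tHet, so the genotypes did not overlap. Epha10 had log2FC of 2.5 and 2.2 (limma adjusted p = 1.6e-06 and 1.1e-05). 9330159M07Rik opposite the tripartite-motif gene Trim43c was at 8.85, 15.4 and 11.2 CPM in Tet tcKO, at 0.765 to 1.91 CPM in Cre- and at 2.09 to 3.01 CPM in tHet, and Trim43c had log2FC of 2.31 and 2.08 (limma adjusted p = 0.00032 and 0.00099). 9330159M07Rik shares 2274 bases with the unnamed gene 9430037G07Rik, which makes its count uncertain. Inppl1, a phosphoinositide phosphatase gene opposite Gm10602, had log2FC of 2.06 and 2.10, and Ampd2, an AMP deaminase gene opposite Gm12500, 1.80 and 2.03 (limma adjusted p of 9.1e-06, 9.5e-06, 4.9e-05 and 1.9e-05).

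Gpat3, a glycerol-phosphate acyltransferase gene of lipid synthesis, was partner to Gm42987 on its own strand, by shared exon bases, and to 4930458D05Rik on the other. 4930458D05Rik was at 11.3, 9.22 and 5.24 CPM in Tet tcKO and at 0.675 to 3.37 CPM elsewhere. Gm42987 was at 1.54, 1.58 and 1.02 CPM in Tet tcKO and at 0 to 0.312 CPM elsewhere. Gpat3 had log2FC of 2.89 and 2.61 (limma adjusted p = 4.3e-06 and 2.2e-05).

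Partners that do not overlap their transcript included Myocd, B4galnt2 and Rasef. Gm12295, a lincRNA 7665 bases from Myocd, which encodes the smooth-muscle coactivator myocardin, was at 1.19, 1.78 and 0.963 CPM in Tet tcKO, at 0.0636 to 0.203 CPM in Cre- and at 0.189 to 0.576 CPM in tHet. Myocd rose from 1.13 ± 0.145 and 1.87 ± 0.488 to 25.4 ± 8.37 CPM (SD, n = 3; log2FC of 3.93 and 3.41, limma adjusted p = 1.9e-07 and 1.4e-06). 4833417C18Rik was at 4.45, 5.07 and 4.03 CPM in Tet tcKO and at 0.426 to 0.864 CPM elsewhere, and the glycosyltransferase gene B4galnt2 4899 bases away had log2FC of 2.08 and 2.20 (limma adjusted p = 0.00029 and 0.00021). Gm11240 starts 252 bases from Rasef, a small-GTPase gene, and points away from it. Rasef had log2FC of 1.96 and 1.75 (limma adjusted p = 0.00033 and 0.00112), the latter with an adjusted p of 0.012 without Tet tcKO replicate 1.

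The 2 partners called lower against both controls were Pde6b and Arhgap10, the latter named after its values were seen. Gm10419, a lincRNA whose CpG-rich promoter is printed above, was at 55.8, 73.8 and 42.3 CPM in Tet tcKO, at 12, 16.5 and 14.1 CPM in Cre- and at 18.8, 16.7 and 17.2 CPM in tHet. Its partner Pde6b, the rod phosphodiesterase beta subunit gene 10152 bases away, went the other way, from 2510 ± 74.6 and 2390 ± 123 to 547 ± 171 CPM (SD, n = 3; log2FC of -2.24 and -2.17, limma adjusted p = 3.2e-05 and 6.2e-05). Of the 6 rod markers given above, 5 fell in the same libraries, and their part was not tested. Gm42517, which shares 139 exon bases with Gm10419 on the opposite strand, was at 6.89, 6.39 and 5.42 CPM in Tet tcKO and at 1.22 to 2.7 CPM elsewhere. Gm45285 opposite Arhgap10, a GTPase-activating protein gene, was at 5.58, 7.51 and 4.09 CPM in Tet tcKO and at 0.706 to 2.10 CPM elsewhere. Arhgap10 had log2FC of -1.29 and -1.07 (limma adjusted p = 0.0009 and 0.00541). Its call against tHet was lost without Cre- replicate 3, tHet replicates 1 or 2, or Tet tcKO replicates 1 or 3, with adjusted p of 0.0103, 0.042, 0.031, 0.0157 and 0.0233. That call was also lost without the filter on low values (limma adjusted p = 0.0197). With TMM scaling and with totals without CT010467.1, log2FC of -1.0 and -0.92 fell short of the threshold. The call against tHet thus depended on scaling.

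Transcripts without a named gene within 50 kb, apart from the clusters above, included Gm32618 and Gm33035. Gm32618, a lincRNA at chr15:32778904-32796006, was at 22.4, 26.1 and 23.2 CPM in Tet tcKO, at 3.18, 3.69 and 4.25 CPM in Cre- and at 3.96, 2.60 and 2.98 CPM in tHet. It was among the steadiest of the list within Tet tcKO, at 23.9 ± 1.95 CPM (SD, n = 3), with log2FC of 2.54 ± 0.28 and 2.74 ± 0.28 (SE). Gm33035 on chromosome 10 was at 1.37, 1.19 and 1.26 CPM in Tet tcKO, with 2 reads over the 6 other libraries against 62, a CPM ratio of 58.7 (95% exact interval of 15.6 to 496). 8030423F21Rik, a lincRNA 21075 bases from Sepsecs, was at 23.8, 19.2 and 16.6 CPM in Tet tcKO and at 0.471 to 2.45 CPM elsewhere, while Sepsecs, a selenocysteine synthase gene, was not called (log2FC of -0.17 and -0.09, limma adjusted p = 0.896 and 0.919).

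Levels between transcripts are compared per kb of merged exon, and short transcripts gain most from that scale. The highest Tet tcKO means per kb were those of the small RNAs Gm25581 (102 CPM per kb) and Gm25911 (96.2), followed by Gm11877 (76.6), 4930447C04Rik (63.5) and Gm45861 (32.2). Gm25581, annotated as an snRNA of 164 bases, was at 15.2, 21.3 and 13.7 CPM in Tet tcKO, at 4.0, 2.67 and 2.5 CPM in Cre- and at 8.50, 8.21 and 3.46 CPM in tHet. Gm25911, annotated as a miRNA hairpin of 56 bases, was at 4.87, 5.34 and 5.96 CPM in Tet tcKO and at 1.40 to 3.10 CPM elsewhere. The list held 6 small RNA loci. Such loci often belong to families of related copies, and fragments this short are poorly covered by a total RNA library, so their counts are uncertain. The search for shared sequence described below, among annotated transcripts, found no near-identical match for any of the 6.

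In makeup, the list held more lincRNAs and fewer intronic loci than the other tested placeholder-named transcripts. By GENCODE type, 30 of 93 were lincRNAs (32.3%, beside 11.5% of 6260 others), 16 were TEC loci, fragments whose annotation awaits experimental work (17.2%, beside 28.1%), 14 antisense (15.1%, beside 18.1%), 8 coding (8.6%, beside 6.98%) and 11 pseudogenes of any type (11.8%, beside 18.7%). A single merged exon was annotated for 36 (38.7%, beside 56.7%). The median merged exon length was 1560 bases, beside 1540. By position, 9 lay inside a named gene on the same strand (9.68%, beside 31.0%), 24 overlapped a named gene on the opposite strand (25.8%, beside 34.6%), and 22 had no named gene within 50 kb (23.7%, beside 8.16%). These shares describe annotation and were not tested. Chromosome 9 held the most, with 10, and chromosome X held 5 (5.38%, beside 1.85% of the others).

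Sequence shared with another gene can move reads between loci. At least 200 bases with at least 95% identity to a gene that does not overlap the transcript were found in 9 of 93 (9.68%), beside 791 of 6260 others (12.6%). Overlapping genes, such as Gm45861 and Gm1698, were left out of this count, and 5 transcripts with under 200 exon bases could not reach that length. For these 5, matches over nearly their full length were sought and none was found. Besides Gm11877 and 9330159M07Rik these were 4930578M01Rik, Gm11546, Gm14597, Gm2396, Gm5067, Gm8798 and Gm9143. Gm8798, a pseudogene, shares 1635 bases with Ces2d-ps of the carboxylesterase family. Gm11546 shares 354 bases, its full exon length, with AA623943, which makes its count uncertain. None of the 9 shared such a stretch with another of the 93.

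Comparing tHet with Cre- asks whether the transcripts already differed with 1 floxed allele of each gene and the transgene, and the rule did not contrast these genotypes, although it capped both. No transcript of the list was called (limma, 0 of 93), where 0.0422% of tested genes were called higher and 0.0% lower. Of the 93, 27 were at 0 in at least 1 of the 6 control libraries. With the added 0.5 CPM, transcripts near 0 in both genotypes could not reach a log2FC of 1. For such transcripts the absence of calls was largely set in advance and does not answer the question. At an unadjusted p under 0.05, 4 were higher (4.3%, beside 3.58% of all tested genes and 6.44% of the other placeholder-named transcripts) and 0 lower. edgeR's quasi-likelihood test also called 0, and DESeq2 called 1. That was Gm45861, with a limma log2FC of 1.36 ± 0.27 (SE, adjusted p = 0.0615) and a DESeq2 log2FC of 1.57 (adjusted p = 0.00145). The adjusted p of Gm45861 over all other settings lay between 0.0027 and 0.441.

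The median log2FC of the 93 between tHet and Cre- was 0.16, beside 0.06 over all tested genes and 0.27 over the 6270 other tested placeholder-named transcripts. Of the 93, 69 (74.2%) had a positive fitted difference, beside 77.0% of the other placeholder-named transcripts. The median of the 93 thus lay below that of the other placeholder-named transcripts. The rule capped the tHet level of the 93 only, and the added 0.5 CPM draws differences between low values toward 0. Nothing is therefore read from this order. In 14 of 93, every tHet library was above every Cre- library, where 5.78% of all tested genes were, and in 1 every tHet library was below, where 5.37% were. The same shares were not counted among the other placeholder-named transcripts, whose differences were also shifted upward. No trait of the list is therefore read from the 14. The 14 included Gm45861, 9330159M07Rik (log2FC of 0.91 ± 0.34, SE), Gm1698 (0.69 ± 0.34), Gm47887 (0.54 ± 0.31), Gm47877 (0.54 ± 0.32) and Gm10419 (0.31 ± 0.24). Apart from Gm45861 none of the 14 had a limma adjusted p under 1. Of the marker lists, 2 of 4 ciliary body genes were called between tHet and Cre-, with sums of 156 to 232 CPM beside 36.8 to 61.0, and their part in these differences was not tested.

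**Figure D5:**
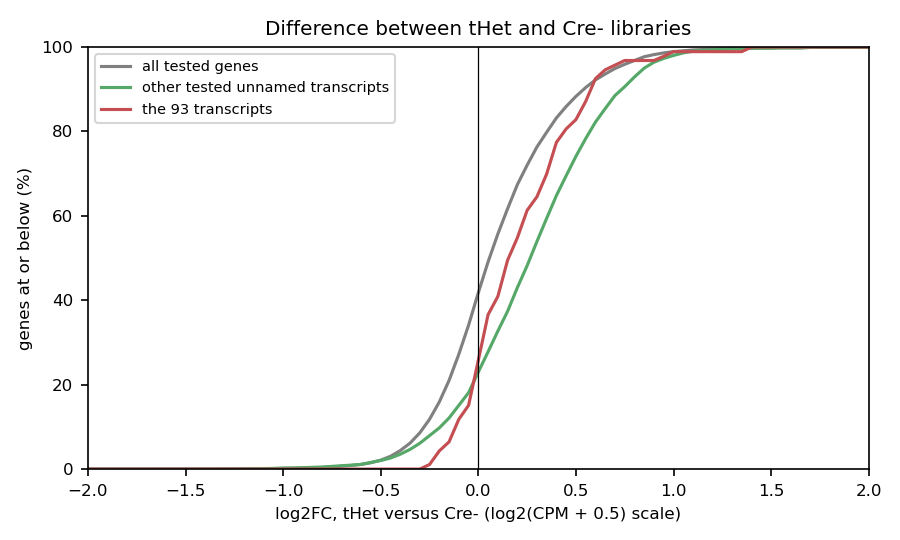
Cumulative share of genes (y axis, %) at or below a given log2FC between tHet and Cre- (x axis, log2(CPM + 0.5) scale), for the 93 transcripts, the 6270 other tested placeholder-named transcripts and all 21330 tested genes. The medians are 0.16, 0.27 and 0.06, so the curve of the 93 lies between the others near its middle.

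Within Tet tcKO, which library stood highest was not set by the rule. By deposited CPM, 52 of the 93 (55.9%) were highest in replicate 2, 34 (36.6%) in replicate 1 and 7 (7.53%) in replicate 3, and 60 (64.5%) were lowest in replicate 3. All tested genes gave nearly the same split, with 55.6%, 38.5% and 5.95% highest and 69.8% lowest in replicate 3. With library totals taken without CT010467.1, 38 of the 93 (40.9%) were highest in replicate 3 and 21 (22.6%) lowest, beside 28.4% and 32.5% of all tested genes. The low standing of replicate 3 was thus seen with the deposited totals and not with totals that leave out the ribosomal RNA row. The summed rod markers were 2510, 5580 and 3160 CPM in replicates 1, 2 and 3, and their relation to the ranks was not tested.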

How the data were processed

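Bulk RNA-seq of P21 retina was analysed in 9 libraries, grouped by genotype from the sample labels. The authors removed ribosomal RNA, prepared stranded libraries (SMARTer Stranded Total RNA), trimmed with Trim Galore 0.6.7, aligned to mm10 with STAR 2.7.0f and counted on genes with HTSeq 0.11.2, per the submitters' processing notes. Neither the annotation release nor how strand and overlaps were handled in counting is given in the sources used here. The authors deposited CPM values, divided by plain library totals, and columns of their own edgeR comparisons, which were not used. Every positive CPM value (100%, within 0.01 of a read) was a whole number of reads, so reads were recovered. Intervals and floors cover counting error only.

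The 21330 genes reaching 0.5 CPM in 3 or more libraries entered limma 3.58.1 in R 4.3.3 (lmFit, eBayes with trend) on log2(CPM + 0.5), all libraries in a single fit with 1 mean per genotype, with Benjamini-Hochberg adjustment over all tested genes. P-values measure the spread between libraries of pooled animals. Adjusted p-values in the text are from this fit unless another tool is named. A call needed an absolute log2FC no smaller than 1 together with an adjusted p below 0.01. Settings tried were other pseudocounts, filters and scalings, edgeR 4.0.16 and DESeq2 1.42.0 on recovered reads, a replicate block, subsets of libraries, and other thresholds of the rule. On simulated Tet tcKO versus Cre- data over 21330 genes with 200 changed at a log2FC of 2, limma recovered 80.5%, edgeR 82% and DESeq2 86.5%. False calls numbered 4, 8 and 18. The changed genes were drawn from those with a mean of at least 1 CPM over all libraries, so the recovery does not cover lower transcripts of the list.

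Positions, gene types and exons came from GENCODE M21 on GRCm38, which matched 55227 of the deposited identifiers and all 93 transcripts, and shared sequence from blastn 2.17.0. Promoter windows are from RefSeq (GRCm38.p6) and matched 36 of 93 by symbol. Repeat content was not analysed here. A further rod marker is not reported here. The members, lists, positions and tests were chosen with earlier results of these data known. Values in the 9 libraries were given singly, as ranges or as summed reads. They cover the 10 transcripts highest per kb in Tet tcKO, the 10 with the largest ratio and those whose partner changed most. Transcripts at the threshold were given by their lowest Tet tcKO and highest other value. Up to 15 partners called in both Tet tcKO contrasts were named. Six6 and other partners or neighbours beyond these were named after their values were seen. Figures were drawn with matplotlib 3.10.9.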

Additional observations from a re-analysis of the deposited data

How the results depend on the processing

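All 93 transcripts had a positive log2FC against both controls under TMM, upper-quartile scaling and totals without CT010467.1, which the rule makes likely. Totals without CT010467.1 shifted the median of all genes by 0.14 against Cre- and 0.13 against tHet. The rule was met by 61 transcripts at a ratio of at least 2, by 116 with TMM (88 of the 93 among them), by 105 with upper-quartile scaling (84 of the 93) and by 124 with totals without CT010467.1 (all 93). Leaving out 1 library gave 96 to 164, the highest without Tet tcKO replicate 3. The median log2FC against Cre- was 2.49 and 1.32 with pseudocounts of 0.1 and 1 CPM, 2.71 with edgeR and 2.74 with DESeq2. Against tHet the same settings gave 2.10, 1.21, 2.31 and 2.33. Leaving out 1 library gave 1.62 to 1.81 and 1.44 to 1.66.

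Partners called higher numbered 18 to 25 against Cre- and 17 to 25 against tHet when 1 library was left out, with 2 to 2 and 1 to 2 called lower. Against tHet, 1 partner was called lower without the filter, with TMM and with totals without CT010467.1. Of 1118 fold changes of the 29 called partners under other settings, 1118 kept their direction and 61 lost their call. Of 678 fold changes of the transcripts themselves, whose direction the rule fixed, 89 moved by over 1 SD. Members called between tHet and Cre- numbered 1 with DESeq2, 1 with the replicate block, and 0 to 0 with 1 library left out.

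Of all tested genes, 768 were called against Cre-, 417 without the filter, 1156 at an adjusted p under 0.05, and 360 to 976 with 1 library left out. Against tHet, 640 were called, 351 without the filter, 1046 with DESeq2, 1125 with the replicate block, 1013 with only the 6 libraries compared, 1104 at an adjusted p under 0.05, and 287 to 959 with 1 library left out. Between tHet and Cre-, 9 were called, 1 each without the filter, with TMM, with upper-quartile scaling, with totals without CT010467.1, with edgeR and with only the 6 libraries compared, 40 with DESeq2, 40 with the replicate block, 20 at an adjusted p under 0.05, and 0 to 17 with 1 library left out. The cause of these shifts was not tested. Same-numbered libraries of different genotypes had a mean correlation of deviations of 0.111 (range -0.35 to 0.56), beside -0.0515 for different numbers, and 5 of 9 libraries correlated best with their own number, so the numbers were not taken to pair the samples. Differences under about 3 reads per library, up to 0.312 CPM, were not detectable at this depth.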
